A study of Mus musculus with 3 samples.

Results

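The smooth muscle contractile genes examined here are Acta2, Actg2, Myh11, Cnn1, Tagln, Mylk, Tpm2 and Des, a set of 8 genes of the contractile apparatus of vessel and airway walls. They were followed in lungs of mice bearing B16 tumours, in lungs of mice bearing LLC tumours and in normal lung. Members were all probe sets whose only gene symbol in the platform annotation was one of these names. This gave 9 probe sets of 12422, or 8 genes of the 8251 that had a probe set with a single symbol. Total RNA from frozen lung tissue was hybridised to 3 Affymetrix mouse expression arrays, 1 per group. B16 is a mouse melanoma line and LLC, Lewis lung carcinoma, is a mouse lung tumour line. Per the series description, tumour cells had been placed under the skin of the back and the lungs stand for the state before tumour cells arrive there. All 3 groups are mouse lung. Strain, age, sex, time after injection and the number of animals behind each sample are not stated in the labels, so the tumour-bearing lungs may be single animals or pools. With 1 array per group there is no replicate, no standard error and no p-value, and each difference below describes these arrays only.

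Smooth muscle shortens when myosin filaments pull on actin filaments. Calcium entering the cell binds calmodulin, which switches on myosin light chain kinase, and phosphorylation of the regulatory light chain lets the smooth muscle myosin heavy chain cycle on actin. Tropomyosin, calponin and transgelin lie along the actin filaments, and desmin filaments tie the contractile units together. In lung these genes mark the muscle coats of bronchi, arteries and veins, and some of them are also made by pericytes and by activated fibroblasts. In RNA from lung tissue, fewer cells of a type and less RNA per cell cannot be told apart.

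Many smooth muscle genes are known to be switched on by serum response factor, which binds a DNA element called the CArG box, with its cofactors of the myocardin family. Promoter sequence was found for 5 of the 8 members (Acta2, Cnn1, Mylk, Tpm2 and Des) in RefSeq, build GRCm38.p6, as windows from 250 bases before to 50 bases after the annotated gene start. The CArG box was searched on both strands, on which it reads alike. Exact matches were in 0 of these 5 windows, against 1.63% of the 32851 windows in the table. When 1 G or C was allowed among the 6 bases of its A and T core, Acta2 held 2 matches, from base -84 to -75 and from -34 to -25 relative to the annotated start, and the other 4 windows held none. The main start used by vascular muscle may differ from the annotated one, so these positions hold for the annotated start only. Of all windows, 9.98% held at least 1 such match and 0.822% at least 2. The 120 bases before the annotated start are shown for Acta2, the member with the largest difference between the tumour-bearing lungs, and for Des, the member with the largest difference between the B16-bearing and control lung. The Acta2 window is chr19:34255374-34255493 on the minus strand and the Des window is chr1:75360172-75360291 on the plus strand. Capitals mark the CArG matches, and a match describes the letters only.
Acta2: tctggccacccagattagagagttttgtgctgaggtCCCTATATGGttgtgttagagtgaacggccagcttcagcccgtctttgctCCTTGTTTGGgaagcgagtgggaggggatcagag
Des: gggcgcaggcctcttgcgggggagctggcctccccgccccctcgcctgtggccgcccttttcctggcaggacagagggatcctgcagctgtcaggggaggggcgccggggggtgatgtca

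Signals are the deposited linear intensities after 1 scaling factor per array (0.987 for B16-bearing, 1.01 for LLC-bearing and 1 for control). A floor of 23.6, the 40th percentile of all scaled values, stood in for a detection limit. It was passed by 7303, 7539 and 7517 probe sets in the same order, and by all 8 members on all 3 arrays through their brightest probe set. The ratio of the 3' to the 5' beta-actin control was 1.56, 1.47 and 1.45, and that of Gapdh was 1.28, 1.01 and 0.956. The Gapdh ratio, a sign of RNA quality, was highest on the B16-bearing array, where 6 of 8 members were highest too, and its part in the members' differences was not tested. Differences are log2 differences of scaled signals, with the fold beside them, and a change of at least 2-fold is the call. Differences between the tumour-bearing lungs are B16-bearing minus LLC-bearing throughout. The robust SD of log2 differences over all probe sets of similar brightness is given as a yardstick. It holds real differences between the arrays as well as noise.

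The contractile genes were, as a set, higher with B16 tumours than with LLC tumours, with 7 of 8 members higher and a median log2 difference of 0.51. Of all genes above the floor on all 3 arrays, 48.7% were higher. Acta2, Tpm2, Tagln, Des and Cnn1 differed by 1.39-fold to 1.99-fold, Myh11 by 1.24-fold, while Mylk and Actg2 were nearly level. Against the control lung, the B16-bearing lung was higher for 7 members (median 0.23), against 50.3% of these genes. The LLC-bearing lung was lower for 5 members (median -0.19), near the 50.4% of these genes that were lower there. No member reached a difference of 2-fold in any of the 3 comparisons. The plot of member signals shows the 3 arrays side by side for each gene.

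**Figure D1:**
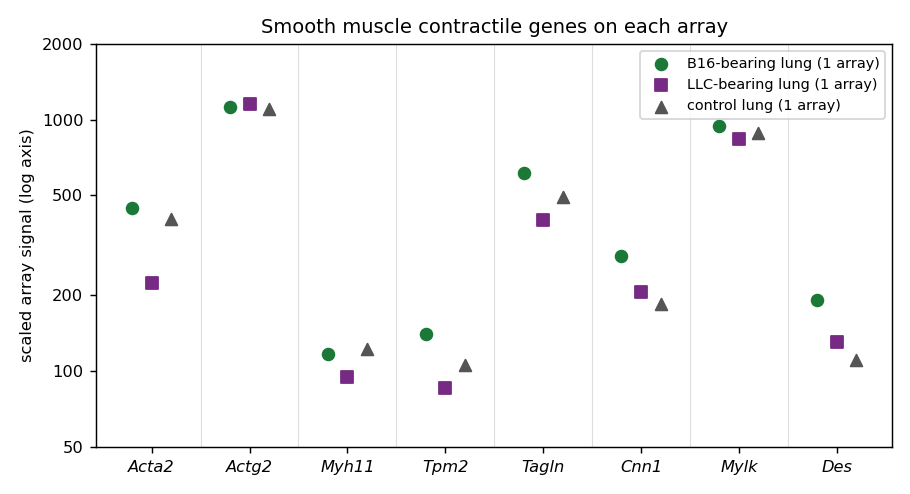
Scaled array signal (log axis) of the 8 smooth muscle genes, each from its brightest probe set, in the B16-bearing lung (circles), the LLC-bearing lung (squares) and the control lung (triangles), 1 array each. Acta2 stands at 445, 223 and 402 in that order, whereas the Actg2 signals lie between 1100.3 and 1156.

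Among the actins, Acta2 encodes alpha smooth muscle actin, the main thin filament actin of vascular muscle and also a marker of myofibroblasts. Its signal was 445 on the B16-bearing array, 223 on the LLC-bearing array and 402 on the control array. The LLC-bearing lung was low, and the other two were close to each other. The B16-bearing over LLC-bearing fold was 1.99 (log2 difference 0.99), just under the 2-fold call. On the deposited values without scaling the same difference was 1.03 and passed it. The LLC-bearing lung was 1.80-fold lower than control (-0.85), and the B16-bearing lung 1.11-fold higher (0.14). For probe sets with signals from 200 to 500 the robust SD was 0.317 between the tumour-bearing lungs and 0.268 between the LLC-bearing and control lung. Acta2 was thus more than 2 robust SDs away in both comparisons.

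Actg2 encodes gamma smooth muscle actin, the enteric actin of visceral muscle. Its signal was 1122 on the B16-bearing array, 1156 on the LLC-bearing array and 1100.3 on the control array. All 3 arrays were nearly equal, with log2 differences of -0.04 between the tumour-bearing lungs, 0.03 for B16-bearing against control and 0.07 for LLC-bearing against control. The suffix of its probe set (_f_at) marks probes that can bind several members of a sequence family, so its signal may include other actin transcripts. Actg1, the cytoplasmic gamma actin, had signals of 2583 in the B16-bearing lung, 3068 in the LLC-bearing lung and 2705 in the control lung.

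In the thick filament, Myh11 encodes the smooth muscle myosin heavy chain, the most restricted marker of mature smooth muscle among the members. Its signal was 117 on the B16-bearing array, 94.8 on the LLC-bearing array and 123 on the control array. The LLC-bearing lung was again the lowest and the other two were close. The B16-bearing over LLC-bearing fold was 1.24 (0.31), within the robust SD of 0.397 at signals from 100 to 200. The LLC-bearing lung was 1.30-fold lower than control (-0.37, robust SD 0.330), and the B16-bearing lung 1.05-fold lower (-0.06).

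Mylk encodes myosin light chain kinase, which starts contraction, and the same locus is known to produce a long kinase of endothelium and the short protein telokin. Which of these its probe set detects is not given in the sources used here. Its signal was 942 on the B16-bearing array, 839 on the LLC-bearing array and 888 on the control array. The arrays stood in the same order as for Acta2, but close together. The log2 differences were 0.17 between the tumour-bearing lungs, 0.08 for B16-bearing and -0.08 for LLC-bearing against control, all within the robust SD of probe sets with signals above 500 (0.247, 0.267 and 0.199).

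Tpm2 encodes beta-tropomyosin, which lies in the groove of the actin filament and is also made by skeletal muscle. Its signal was 140.2 on the B16-bearing array, 85.9 on the LLC-bearing array and 106 on the control array. The control lung lay between the tumour-bearing lungs. The B16-bearing over LLC-bearing fold was 1.63 (0.71), and the differences from control were 0.40 (B16-bearing) and -0.31 (LLC-bearing). A second probe set of Tpm2, whose suffix (_r_at) marks relaxed design rules, was below the floor on all 3 arrays. With the floor raised to a signal of 100 the difference of the LLC-bearing lung from control was -0.09, since the LLC-bearing signal is then at the floor. The difference between the tumour-bearing lungs was then 0.49.

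Tagln encodes transgelin, or SM22 alpha, an actin-binding protein of early and mature smooth muscle. Its signal was 612 on the B16-bearing array, 401 on the LLC-bearing array and 492 on the control array. The control lung stood almost midway on the log2 scale. The B16-bearing over LLC-bearing fold was 1.53 (0.61), more than 2 robust SDs (0.247) at this brightness. Against control the B16-bearing lung was 1.24-fold higher (0.31) and the LLC-bearing lung 1.23-fold lower (-0.30).

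Cnn1 encodes calponin 1, which binds actin and slows the myosin ATPase. Its signal was 287 on the B16-bearing array, 207 on the LLC-bearing array and 185 on the control array. Here the control lung was the lowest. The B16-bearing lung was 1.56-fold higher than control (0.64) and 1.39-fold higher than the LLC-bearing lung (0.47), each beyond the robust SD (0.349 and 0.317), and the LLC-bearing lung was 1.12-fold higher than control (0.17). The suffix of its probe set (_s_at) marks probes shared by more than one transcript.

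Des encodes desmin, the intermediate filament protein of all muscle types. Its signal was 192 on the B16-bearing array, 131 on the LLC-bearing array and 111 on the control array. The order was that of Cnn1, with the control lung lowest. The B16-bearing lung was 1.73-fold higher than control (0.79), beyond the robust SD of 0.438, and 1.47-fold higher than the LLC-bearing lung (0.55). The LLC-bearing lung was 1.18-fold higher than control (0.24), within the robust SD of 0.330. Des is also made in heart muscle. The summed signal of 15 heart muscle genes was 1853 (B16-bearing) and 1681 (LLC-bearing), against 3283 (control), so it was below control with either tumour and, as for Des, higher with B16 than with LLC tumours. Its part in the Des values was not tested.

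**Figure D2:**
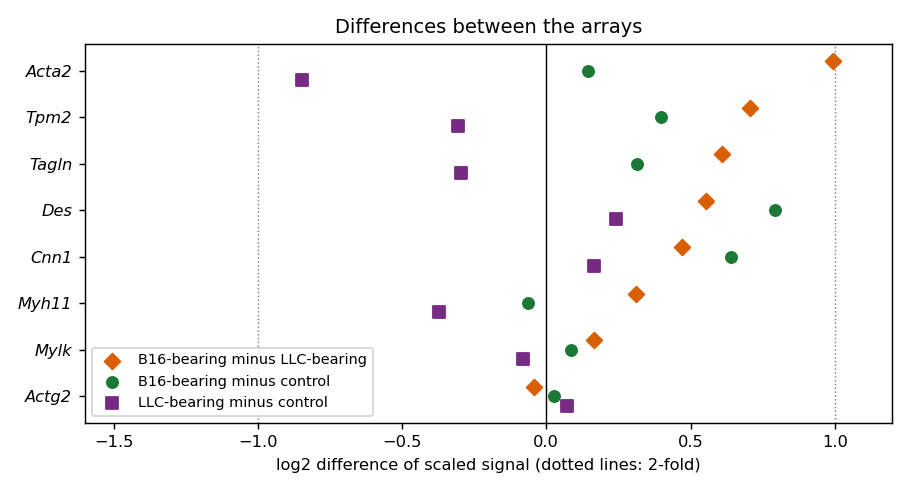
Log2 differences of scaled signal for each member, ordered by the difference between the tumour-bearing lungs: B16-bearing minus LLC-bearing (diamonds), B16-bearing minus control (circles) and LLC-bearing minus control (squares). Diamonds run from -0.04 (Actg2) to 0.99 (Acta2), and no symbol passes the dotted 2-fold lines.

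Taken over the set, the comparison between the tumour-bearing lungs gave a nearly uniform direction. Of the 8 members 7 were higher in the B16-bearing lung, while 48.7% of the 5136 genes above the floor on all 3 arrays were higher there and their median was -0.01. The members at least 1.5-fold higher were Acta2, Tpm2 and Tagln, 3 of 8, against 7.44% of these genes, and 0 members were 1.5-fold lower, against 10.1%. At the 2-fold call there were 0 of 8 members higher or lower, against 2.28% and 3.17% of these genes, or 3.41% and 4.93% of all genes measured in this comparison. The 1.5-fold limit was chosen after the values were seen. The median of the members moved between 0.48 and 0.58 over the 8 alternative ways of processing, and 23 of the 24 member differences kept their sign in all of them. The exception was Actg2 in the B16-bearing lung against control, which was -0.05 under quantile normalization. The count of members at least 1.5-fold higher with B16 than with LLC tumours ran from 2 to 4 over the alternatives. It was 2 with a floor of 100, where Tpm2 differed by 0.49. Not all of the 8 alternatives could change a member value. The floors at the 60th percentile and at the 20th percentile of positive values left every member as it was, since all were above these floors. So did the mean of measured probe sets, since each member had 1 above the floor. Leaving out probe sets with an _f, _g, _i, _r or _s suffix only removed Actg2 and Cnn1 from the members.

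Set against the control lung, more members were higher with B16 tumours than with LLC tumours. In the B16-bearing lung 7 of 8 were higher, against 50.3% of all genes above the floor, and Cnn1 and Des, 2 of 8, were at least 1.5-fold higher, against 8.04%, and 0 were 1.5-fold lower, against 11.4%. At 2-fold it was 0 of 8 either way, with 2.18% of these genes higher and 3.29% lower (3.23% and 4.73% of all genes measured). In the LLC-bearing lung 5 of 8 were lower, near the share of 50.4% over these genes. Acta2 alone was at least 1.5-fold lower, 1 of 8 against 6.99%, and 0 were 1.5-fold higher, against 7.26%. At 2-fold it was again 0 of 8, with 2.61% higher and 1.79% lower (3.95% and 2.98% of all genes measured). The LLC-bearing median of -0.19 was -0.085 with a floor of 100 and -0.30 without the probe sets of these suffixes, which leaves out Actg2 and Cnn1. It was -0.083 without Acta2, Myh11, Tagln or Tpm2 and -0.30 without Actg2, Cnn1, Mylk or Des, each left out in turn. Both comparisons use the same control array.

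Acta2, Tagln, Mylk and Tpm2 stood in the order B16-bearing, control, LLC-bearing from high to low, which 16.6% of the genes above the floor on all 3 arrays shared. Cnn1 and Des stood in the order B16-bearing, LLC-bearing, control, shared by 19.0%. In all, the B16-bearing lung was highest for 6 of 8 members (35.6% of these genes) and the LLC-bearing lung lowest for 5 of 8 (29.7%). Counted in robust SDs of probe sets of similar brightness, 5 of 8 members were beyond 1 between the tumour-bearing lungs, against 34.3% of all genes with a mean signal of at least 100, and Acta2 and Tagln were beyond 2, against 9.87%. In the B16-bearing lung against control 3 members (Cnn1, Tagln and Des) were beyond 1, against 32.7%, and 0 beyond 2, against 8.03%. In the LLC-bearing lung against control 3 members (Acta2, Myh11 and Tagln) were beyond 1, against 34.4%, and Acta2 beyond 2, against 10.6%. Both counts against control beyond 1 are near the share of all genes.

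**Figure D3:**
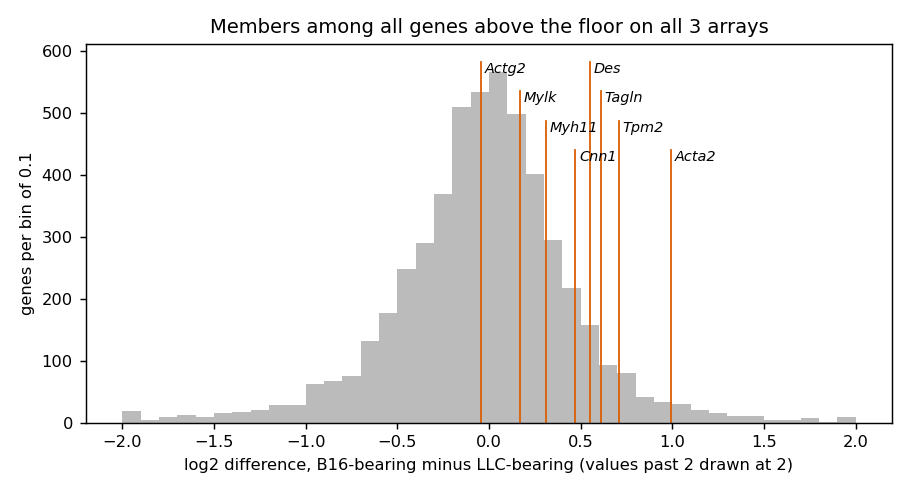
Histogram of the log2 difference, B16-bearing minus LLC-bearing, over the 5136 genes above the floor on all 3 arrays (bins of 0.1, values past 2 drawn at 2), with the 8 members as vertical lines. Only Actg2, at -0.04, lies left of 0, and Acta2 at 0.99 lies farthest right.

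Genes of other proteins of the contractile apparatus were centred near 0. Of 31 listed partners, 17 were measured, and between the tumour-bearing lungs 7 were higher and 10 lower with B16 tumours (median -0.05). Fhl1, a LIM protein of muscle, had signals of 1684 in the B16-bearing lung, 1537 in the LLC-bearing lung and 1670 in the control lung. Tpm1, alpha-tropomyosin, had 713, 718 and 749 in the same order, Csrp1, a LIM protein of smooth muscle, 721, 706 and 796, and Vcl, the adhesion protein vinculin, 680 and 707 against 878 in the control lung. On these brightest probe sets the tumour-bearing lungs were within 0.13 of each other on the log2 scale. Second probe sets differed by 0.34 for Fhl1, 0.19 for Csrp1 and -0.29 for Vcl. Myl9, the regulatory light chain that Mylk phosphorylates, was picked out after its values were seen. Its signal was 261 on the B16-bearing array, 159 on the LLC-bearing array and 235 on the control array, so the LLC-bearing lung was lowest, as for Acta2 (0.72 between the tumour-bearing lungs, -0.57 for LLC-bearing against control). Myl9 was the only 1 of the 17 at least 1.5-fold higher with B16 than with LLC tumours. Another 3 were at least 1.5-fold lower, Ppp1cb (-0.83), Cnn2 (-0.71) and Itga8 (-0.61). Of all genes above the floor on all 3 arrays, 7.44% were so higher and 10.1% lower. The partners' medians against control were -0.14 (B16-bearing) and -0.17 (LLC-bearing).

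In the signalling that leads to contraction, 11 of 30 listed genes were measured in each comparison with control. Their medians were 0.03 (B16-bearing) and -0.11 (LLC-bearing), and -0.04 between them over 10 genes. Rhoa, the GTPase that keeps the light chain phosphorylated through its kinases, had signals of 416 in the B16-bearing lung, 385 in the LLC-bearing lung and 408 in the control lung, and 460.5, 326 and 301 on another bright probe set. Rock1, one of those kinases, had 164, 143 and 153 in the same order, while its second probe set had 71.1 and 95.2 in the tumour-bearing lungs, against 150.4 in the control lung. Gucy1b1, a subunit of the nitric oxide receptor that relaxes smooth muscle, had 177 and 217, against 318 in the control lung. Rgs2, which damps signalling from contractile receptors, had 139 and 172, against 177. Atp2a2, which pumps calcium into the sarcoplasmic reticulum and is abundant in heart, was below the floor in both tumour-bearing lungs, against 109 in control, which is at least 4.61-fold lower in each.

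Regulators of smooth muscle transcription were centred near 0. Of 29 listed entries 17 were measured, with 8 higher and 9 lower in each of the 3 comparisons (medians -0.03, -0.04 and -0.03 for B16-bearing against control, LLC-bearing against control and B16-bearing against LLC-bearing). Klf4, a factor known to repress the contractile genes, had signals of 638 in the B16-bearing lung, 754 in the LLC-bearing lung and 607 in the control lung. Mef2d, a muscle transcription factor, had 647, 549 and 485 in the same order. Hey1, a target of Notch signalling, had 329, 289 and 344, and Mef2b 264, 262 and 284. Srf and Myocd, which encode serum response factor and myocardin, were not analysed here.

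The families to which the members belong also hold genes of other cells, and these were compared as a list drawn up after the members' values had been seen. Over the 12 measured genes the medians against control were -0.02 (B16-bearing) and 0.04 (LLC-bearing), and -0.03 between the tumour-bearing lungs. Tpm4, a tropomyosin of non-muscle cells, had 1514 in the B16-bearing lung, 1155 in the LLC-bearing lung and 1321 in the control lung, the order of Acta2 at a smaller size (0.39 between the tumour-bearing lungs). Tagln2, the transgelin of non-muscle cells, had 1493, 1225 and 1179 in the same order of groups. The log2 difference of Actg1 between the tumour-bearing lungs was -0.25.

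Markers of neighbouring cell types were read beside the members, because lung tissue holds them all. Pericytes and other mural cells share several contractile genes. Of the 9 measured mural genes 6 were higher with B16 than with LLC tumours (median 0.31), and their summed signal was 1239 (B16-bearing) and 1038 (LLC-bearing), against 1123 (control). The members' own sum was 3856 and 3138, against 3407. Mcam, an adhesion protein of vessel walls, had 698 and 554, against 598, and so made up most of the mural sum. Anpep, an aminopeptidase of pericytes and other cells, had 133 and 107, against 113. The defining mural markers Pdgfrb and Rgs5 were dim. Pdgfrb had 42.6 and 31.1, against 39.2, and Rgs5 27.7 and 23.2, the latter below the floor, against 25.6. Notch3, a receptor of vascular muscle, had 192 and 199, against 185, and Angpt2, a ligand of the endothelial Tie2 receptor, 39.7 and 47.8, against 63.8. The part of mural cells in the members' differences was not tested.

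Leukocyte genes ran opposite to the contractile genes between the tumour-bearing lungs. All 9 measured were lower with B16 than with LLC tumours (median -1.55), with summed signals of 1971 (B16-bearing) and 4418 (LLC-bearing), against 2653 (control). Cd52, a lymphocyte surface protein, had 206 and 707, against 409, and Tyrobp, a myeloid signalling adaptor, 226 and 706, against 305. Lcp1, the leukocyte plastin, had 397 and 738, against 502, and Laptm5, a lysosomal protein of blood cells, 658 and 879, against 592. The part of leukocyte RNA in the members' differences was not tested.

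Endothelial, epithelial and fibroblast lists had medians between 0.02 and 0.26 between the tumour-bearing lungs. Endothelial genes were higher in the B16-bearing lung for 9 of 13 (median 0.26), where Cdh5 (VE-cadherin) differed by -0.18, Eng (endoglin) by 0.33, Cldn5 (a claudin) by 0.09 and Ramp2 (a receptor partner) by 0.28. The other defining endothelial markers did not share a direction, with Pecam1 at 0.77, Tek at -0.34 and Kdr at -0.02. Pecam1 had 313 (B16-bearing) and 183 (LLC-bearing), against 304 (control), so the LLC-bearing lung was lowest, as for Acta2. Lung epithelial genes had a median of 0.06 over 11 genes, with Sftpc at 7482 in the B16-bearing lung, 7296 in the LLC-bearing lung and 6206 in the control lung and Scgb1a1 at 5927, 6218 and 5424. These surfactant and club cell genes thus carry high signals on all 3 arrays labelled as lung. Ager, of type 1 alveolar cells, differed by 0.47 and Lyz2, of macrophages and type 2 cells, by -0.44. Fibroblast genes had a median of 0.02 over 17 genes, where Pdgfra differed by 0.40, Ogn by 0.39 (-0.31 on its second probe set), Postn by 0.01 and Fn1 by -0.12. Against control the medians were 0.19 (B16-bearing) and 0.05 (LLC-bearing) for endothelial genes, 0.18 and 0.07 for epithelial genes and 0.00 and -0.10 for fibroblast genes.

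Cartilage genes, which mark large airways, were measured for 7 genes between the tumour-bearing lungs, with a median of -0.05. Col9a3 differed by 1.10, Chad by 0.43 and Col9a2 by -0.05, while Col9a1 was below the floor with B16 tumours, against 80.2 with LLC tumours. The cartilage marker Matn1 was below the floor on all 3 arrays. Acan, another marker, had 54.6 (B16-bearing) and 32.7 (LLC-bearing), against 43.8 (control), a difference of 0.74 between the tumour-bearing lungs. The marker Col2a1 was below the floor in both tumour-bearing lungs, against 44.2 in control. Against control the cartilage medians were 0.01 (B16-bearing) and -0.14 (LLC-bearing).

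Most heart muscle genes were below control with either tumour. Of 15 measured, 13 were lower with B16 tumours (median -1.08) and 12 with LLC tumours (median -1.13). At least 2-fold lower were 9 with B16 tumours and 8 with LLC tumours, against 4.73% and 2.98% of all genes measured. The 8 that were so in both were Myh6, Myh7, Tnnt2, Tnni3, Tnnc1, Myl4, Myl7 and Mb, which encode cardiac myosin chains, troponins and myoglobin. The share of all genes lower in both was not computed. Tnnc1, Mb and Ckmt2 were below the floor in both tumour-bearing lungs, so they could only come out lower, and their folds are bounds. The other 12 were above the floor on all 3 arrays. Myl7, the atrial light chain, had 288 (B16-bearing) and 187 (LLC-bearing), against 611 (control). Myh6, Tnnt2 and Myl4 were 3.43-fold, 2.37-fold and 2.11-fold below control with B16 tumours and 7.65-fold, 3.55-fold and 2.91-fold below it with LLC tumours. Between the tumour-bearing lungs the heart list had a median of 0.17 over 12 genes. Of the brighter heart genes, Nppa (a natriuretic peptide) had 198 and 171, against 251, Mybpc3 (a myosin-binding protein) 151 and 134, against 126, and Cox8b (a cytochrome oxidase subunit) 82.9 and 94.8, against 84.1. Actc1, the cardiac actin, had 485 and 505, against 670, and on its second probe set 227 and 112, against 312. Another 8 heart genes on the array, Myl2 and Myl3 among them, were below the floor throughout.

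Skeletal muscle genes had medians of -0.16 (B16-bearing) and -0.33 (LLC-bearing) against control over 10 genes, and -0.19 between the tumour-bearing lungs over 9. The defining markers Acta1, Ckm and Tnnt3 were below the floor on all 3 arrays, and Mylpf had 38.1 (B16-bearing) and 43.4 (LLC-bearing), against 42.1 (control). At least 2-fold lower were 3 of 10 with B16 tumours and 4 of 10 with LLC tumours, against 4.73% and 2.98% of all genes measured. Those lower with either tumour were Myl1, a light chain of fast muscle, Atp2a1, its calcium pump, and Tnni1, the slow troponin I. Their control signals were 60.2, 94.1 and 113. Myl1 was below the floor in both tumour-bearing lungs, so it could only come out lower. Tnnc2, a fast troponin, had 152 and 102, against 143, and on its second probe set 37.9 and 43.3, against 29.1. Eno3, the muscle enolase, had 117 and 137, against 153, and Casq1, a calcium store protein, 97.8 and 137, against 81.4. Pvalb, a calcium buffer of fast muscle, had 242 (B16-bearing) and was below the floor (LLC-bearing, at -45.0), against 276 (control). The other Pvalb probe set read 5.43 (B16-bearing), 0.303 (LLC-bearing) and 0.4 (control). None of these values reached the floor, so the low LLC-bearing value of Pvalb rests on a single probe set. For Des and Tpm2, which striated muscle also makes, the part of heart or skeletal muscle RNA was not tested.

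**Figure D4:**
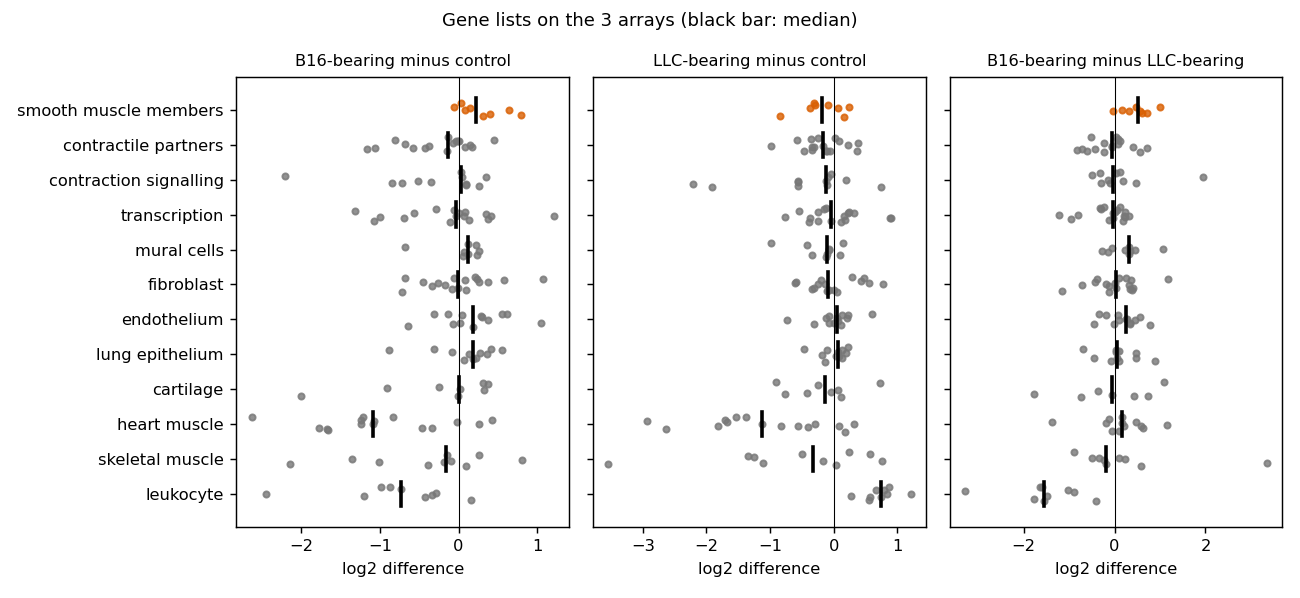
Log2 differences of the measured genes of each list (points, 1 per gene; black bars are medians) for B16-bearing minus control, LLC-bearing minus control and B16-bearing minus LLC-bearing. The smooth muscle members have medians of 0.23, -0.19 and 0.51, heart muscle genes have medians of -1.08 and -1.13 against control, with 2 and 3 of 15 genes right of 0, and leukocyte genes have a median of -1.55 between the tumour-bearing lungs.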

How the data were processed

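The authors deposited background-subtracted linear intensity values, 1 per probe set and array, and some are negative. Per the labels' protocols, TRIzol RNA was made into biotin-labelled cRNA by the manufacturer's procedure. The array software, the summarisation and any scaling before deposit are not stated there. Groups came from sample titles and source names. From 12488 probe sets, 66 controls were set aside. GEO's platform annotation gave 1 symbol for 10833 probe sets, several for 396 and none for 1193. Each gene took the values of its brightest probe set.

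Each array got 1 factor, chosen so that its probe sets with a mean above the median had a median log2 ratio of 0 against control. Values under the floor were raised to the floor, log2 was taken, and a gene counted as measured when above it on at least 1 of the 2 arrays. A fold against a value at the floor is a bound. Robust SD is 1.4826 times the median absolute deviation. No test was run, since each group had 1 array, and the number of arrays limits the precision.

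The members and the 11 related lists (217 entries) were chosen with earlier results of these data known. Named genes were the members, list genes at least 2-fold different in the same direction in both tumour-bearing lungs, and the 4 brightest others of a list. Scripts ran in Python 3.11.15 with numpy 2.4.6 and pandas 2.3.3 and were tested on simulated data. Alternatives changed the scaling, the floor, the probe sets used and the summary per gene.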

Additional observations from a re-analysis of the deposited data

Results flagged for a closer look

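With 1 array per group, results were picked out here when the B16-bearing and LLC-bearing lungs lay on opposite sides of the control lung by at least 0.1 each on the log2 scale. None of these differences between the models was tested, and both sides share 1 control array. Among the contractile genes this held for Acta2 (0.14 for B16-bearing and -0.85 for LLC-bearing, 0.99 apart), Tpm2 (0.40 and -0.31, 0.71 apart) and Tagln (0.31 and -0.30, 0.61 apart). The share of all genes that met this rule was not computed. The limit of 0.1 lies below the robust SD. Acta2 in the B16-bearing lung (robust SD 0.349) and Tpm2 on both sides (0.438 and 0.330) were within it, and Tagln (0.267 and 0.199) was beyond it on both sides. The rule also held for the median of the members (0.23 and -0.19), whose difference between the tumour-bearing lungs was 0.51.

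Among the other genes named, the B16-bearing minus LLC-bearing differences were 0.33 for Mcam, 0.40 for Pdgfra, 1.10 for Col9a3 and 0.39 for Tpm4, each above control in the B16-bearing lung. The second probe set of Pdgfra differed by -0.53. The reverse held for Lyz2 (-0.44), Cd52 (-1.78), Tyrobp (-1.64) and Lcp1 (-0.89). The median of the mural cell genes differed by 0.31 and that of the leukocyte genes by -1.55.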

How the results depend on the processing

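No paired analysis was possible because each group had 1 array, and no replicate could be left out. Of 695 values recomputed under alternatives, 670 moved by less than the robust SD of their comparison, or for counts by no more than 1.5 times. Another 25 moved by more, and 0 turned a called difference round. No member or median of the members was called, so that last count does not bear on them. Against control the robust SD over all probe sets was 0.457 (B16-bearing) and 0.366 (LLC-bearing). This exceeds the members' medians of 0.23 and -0.19, so even a change of their sign could pass it. Without scaling 1 member, Acta2, was at least 2-fold higher with B16 than with LLC tumours, against 0 with scaling. A further alternative left out probe sets with an _f, _g, _i, _r or _s suffix, which drops Actg2 and Cnn1. There 1 of 6 members was higher in the LLC-bearing lung than in control. In the B16-bearing lung 1 was at least 1.5-fold higher than in control, and the skeletal muscle median (LLC-bearing minus control) was 0.044. Leaving out each member in turn, an alternative added after the data were seen, moved no median of the members by as much as the robust SD, the same wide limit. The heart muscle median (LLC-bearing minus control) was -0.53 with the floor at the 60th percentile and -0.55 at a signal of 100, and for B16-bearing minus control -0.51 at 100. Genes at least 2-fold higher and lower numbered 193 and 282 (B16-bearing against control), 237 and 179 (LLC-bearing against control) and 204 and 295 (B16-bearing against LLC-bearing). With the floor at the 60th percentile these were 59 and 65, 73 and 40, and 62 and 88. At a signal of 100 they were 37 and 33, 43 and 18, and 31 and 57. Over genes above the floor on all 3 arrays, also added later, they were 112 and 169, 134 and 92, and 117 and 163. A higher floor sets more dim genes to it by construction. Signal over background limits dim genes most, with a robust SD of 0.507 between the tumour-bearing lungs at signals from 50 to 100 and 0.247 above 500.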

Other observations

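A receptor of the contraction list stood out after the values were seen. Avpr1a, the vasopressin receptor that constricts vessels, had a signal of 91.5 with B16 tumours and lay below the floor with LLC tumours, against 88.5 in control. It was at least 3.88-fold higher with B16 than with LLC tumours and, with LLC tumours, at least 3.75-fold below control, from 1 probe set and 1 array each. Angpt1, a vessel ligand made by mural cells, had 51.2 (B16-bearing) and 24.6 (LLC-bearing), against 48.7 (control). Klf5, a transcription factor linked to smooth muscle growth, had 39.99 (B16-bearing) and 77.1 (LLC-bearing), against 99.3 (control). Itga8, an integrin chain of smooth muscle and fibroblasts, had 55.6 and 84.9, against 117. These other 3 genes were also picked after their values were seen.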
